A study of Mus musculus with 53 samples.

Results

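Anti-PD-L1 treatment was compared with isotype antibody in WGD+ mammary tumours, using 6 of the 53 RNA-sequencing libraries of the series: the 3 libraries titled WGD+ anti-PD-L1 and the 3 titled WGD+ isotype in the antibody experiment, chosen by their titles and not by any measured value. Both groups were tumours grown from TA3 Hauschka cells, a mouse mammary tumour line, in a form engineered to carry a whole genome doubling (WGD+). The hosts were female A/J mice of 6 weeks, which have an intact immune system, and cells were placed with 50% Matrigel in an inguinal mammary fat pad, with antibody treatment over 14 days. The only labelled difference between the groups was the antibody: one directed at PD-L1, or an isotype control. Tumours of cells without the doubling (WGD-) received the same antibodies in the same experiment, and both forms also received anti-CD8, an antibody against a surface protein of cytotoxic T cells. The sources used here give neither clone nor dose of the antibodies, nor whether the WGD+ form is 1 clone or several. Separate animals for the replicates are not named in the labels. A p-value here therefore covers only the spread among libraries, which may in part be technical.

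PD-L1, encoded by Cd274, is a surface protein of tumour cells and myeloid cells that engages the receptor PD-1 on activated T cells and restrains them. Interferon-gamma released by activated T cells and NK cells acts on neighbouring cells, and induces the transcription factor IRF1, PD-L1 itself, antigen presentation genes, guanylate-binding proteins and the chemokines Cxcl9 and Cxcl10. Macrophages are a common infiltrate of mammary tumours. Those that express Arg1, the enzyme that splits arginine, and the scavenger receptors Cd163 and Mrc1 are usually described as alternatively activated.

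Levels are the deposited values, log2(CPM + 1), where CPM is the read count scaled to the library's depth. A difference is anti-PD-L1 minus isotype on this log2 scale, which understates the change of low genes. Values given in a series of 3 are in the order of replicates 1, 2 and 3. The 6 libraries held 9.57 to 14.3 M assigned reads (M, mega), so that 1 read was worth 0.0717 to 0.107 CPM. Epithelial markers of the labelled mammary tumour were present in all 6 libraries, with Epcam at 7.32 to 8.17, Krt8 at 8.67 to 9.29 and Krt18 at 7.39 to 8.27. In bulk tumour RNA, fewer cells of a type and less RNA per cell cannot be told apart.

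Isotype replicate 2 stood apart from its group. A genotype score was built from 42 genes higher and 120 genes lower in WGD+ than in WGD- tumours of immunodeficient mice, in another experiment of the series. In the antibody experiment the 8 WGD- libraries scored from -1.17 to -0.50, and 8 of the 9 WGD+ libraries scored from 0.49 to 0.98. The library titled WGD+ isotype 2 scored 0.11, between the forms. Its genes higher in WGD+ averaged -0.11, and its genes lower in WGD+ averaged -0.21. It was also the WGD+ library whose closest library by correlation was of the other form (r = 0.979 with WGD- anti-CD8 replicate 2). Among WGD- libraries this was also so for 1, isotype replicate 2, whose closest was WGD+ anti-PD-L1 replicate 3 (r = 0.977) and whose score of -0.96 was that of its label. Differences are therefore also given without it, as a comparison of 3 libraries with 2; the per-library levels show its place in the rest.

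**Figure D1:**
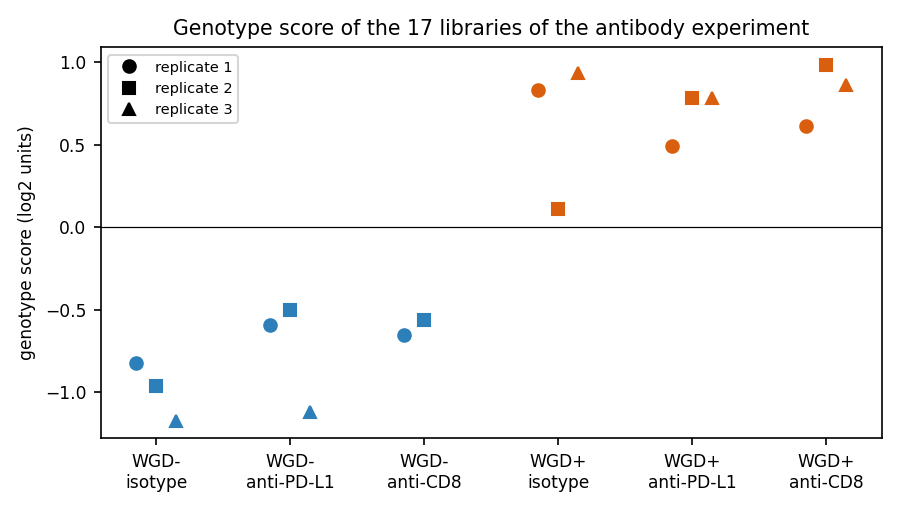
Genotype score (log2 units, vertical axis) of the 17 libraries of the antibody experiment by group, with the replicate number as the symbol. WGD- libraries lie below -0.5 or at it, and WGD+ libraries at 0.49 or above, except isotype replicate 2 at 0.11.

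Arg1 had the largest difference of the genes named by rank. It stood at 3.84, 2.95 and 5.01 in the isotype libraries and at 6.71, 7.81 and 6.88 in the anti-PD-L1 libraries, a difference of 3.20 (SE 0.60). The lowest anti-PD-L1 library lay above the highest isotype library, and the difference was 2.70 without isotype replicate 2. Even so, no gene passed the test: limma called 0 of 13840 genes (0%) at an adjusted p under 0.05, and the adjusted p of Arg1 was 0.677. An unadjusted p under 0.05 was reached by 504 genes (3.64%). By voom on the recovered reads 0 genes were called, and 418 reached that unadjusted p. Without isotype replicate 2, limma again called 0 of 13815 genes (0%), with 241 (1.74%) at an unadjusted p under 0.05. The values that follow are therefore measured levels, and none of them is a called change. A p that misses the threshold does not show that the groups were alike. The 95% interval of the Arg1 difference ran from 1.91 to 4.49. Intervals given here are for single genes and are not adjusted for the number of genes tested. Arg1 was also picked by rank in this contrast, so its interval is a description and supports nothing further.

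The separation of the groups was also counted directly. In 680 of 13840 genes (4.91%) all 3 anti-PD-L1 libraries lay above all 3 isotype libraries, and in 523 (3.78%) all lay below. Leaving out a library cannot undo such a separation, so genes counted here are counted again without isotype replicate 2. The 10 genes in each direction with the smallest p among such genes are described next. They were ranked by the same contrast, so their separation is a description and supports nothing further.

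Ccn2 (chr10:24595442-24598683, mm10), a secreted matricellular protein also known as CTGF, had the smallest p of the higher genes. Its levels were 5.58, 4.78 and 5.67 under isotype and 6.87, 6.58 and 6.72 under anti-PD-L1, a difference of 1.38 (SE 0.27, limma adjusted p = 0.677; 1.10 without isotype replicate 2). The anti-PD-L1 libraries lay within a narrow band above all isotype libraries. Arg1 lies on the same chromosome (chr10:24915221-24927484). Il24, a secreted cytokine, stood at 3.30, 1.74 and 2.08 against 4.64, 4.05 and 3.79, a difference of 1.79 (SE 0.39, limma adjusted p = 0.677; 1.47 without isotype replicate 2). Isotype replicate 1 was the highest of its group, still below every anti-PD-L1 library. Srgn, the core protein of a proteoglycan stored in granules of blood cells, stood at 5.11, 4.99 and 4.84 against 6.00, 6.94 and 6.31. Its difference of 1.43 (SE 0.31) was almost the same without isotype replicate 2 (1.44).

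Plau, the urokinase-type plasminogen activator, stood at 5.76, 4.52 and 6.17 against 7.03, 7.19 and 6.80, a difference of 1.53 (SE 0.34) that was 1.04 without isotype replicate 2. Cldn4, a tight junction claudin, stood at 2.80, 2.11 and 3.70 against 4.21, 4.80 and 4.09, a difference of 1.50 (SE 0.33; 1.12 without that library). Fcna, a ficolin made by macrophages, stood at 2.54, 0.89 and 2.62 against 4.42, 4.37 and 3.89, a difference of 2.22 (SE 0.52; 1.65 without it). In each of these genes isotype replicate 2 was the lowest library. The other higher genes were B3gnt7 (0.96), a glycosyltransferase, Man1a (0.83), a mannosidase of the Golgi, and Atp6v1c2 (1.31), a subunit of the vacuolar proton pump. Without isotype replicate 2 these were 0.70, 0.67 and 0.92. The adjusted p of the 10 higher genes ran from 0.677 to 0.745.

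Among genes lower under anti-PD-L1, Cenpv, a centromere protein, had the smallest p, with 3.90, 4.39 and 4.13 under isotype and 3.20, 3.31 and 3.24 under anti-PD-L1 (difference -0.89, SE 0.20, limma adjusted p = 0.677; -0.77 without isotype replicate 2). Bmp7, a secreted bone morphogenetic protein, stood at 5.02, 5.56 and 3.67 against 3.53, 3.09 and 3.06, a difference of -1.52 (SE 0.39, limma adjusted p = 0.998; -1.12 without isotype replicate 2). Isotype replicate 3 of Bmp7 lay only just above the highest anti-PD-L1 library. Tbx2, a T-box transcriptional repressor, stood at 3.36, 3.91 and 3.18 against 2.54, 2.12 and 2.37 (difference -1.14, SE 0.27; -0.92 without isotype replicate 2). Aldh5a1, the succinic semialdehyde dehydrogenase, stood at 3.42, 3.32 and 2.59 against 1.92, 2.15 and 1.90 (difference -1.12, SE 0.26; -1.02 without it). For both genes every isotype library lay above every anti-PD-L1 library. Epor, the erythropoietin receptor, had a difference of -0.87 (-0.79 without it), and Elmo1, which acts with DOCK proteins in Rac activation and engulfment, one of -0.77 (-0.84). The rest of the 10 lower genes were Habp4 (-0.58), Ss18l2 (-0.64) and the kinesins Kif21a (-0.72) and Kif13a (-0.49), at -0.40, -0.39, -0.50 and -0.39 without isotype replicate 2.

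When the ranking was repeated without isotype replicate 2, 7 of the 10 higher and 6 of the 10 lower genes were named again. The entrants were Arrdc4, Entpd3 and Spopl among the higher genes, and Ppl, Lcmt1, Cbx6 and Fam186b among the lower ones. Arrdc4, an arrestin-domain protein, stood at 5.03 and 4.89 in isotype replicates 1 and 3 and at 5.96, 5.62 and 5.73 under anti-PD-L1. Cbx6, a Polycomb chromobox protein, stood at 6.34 and 6.00 in the same isotype libraries and at 5.58, 5.53 and 5.54 under anti-PD-L1. Isotype replicate 2 had Cbx6 at 4.95, below all of them, so the difference was -0.21 with that library and -0.62 without it.

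**Figure D2:**
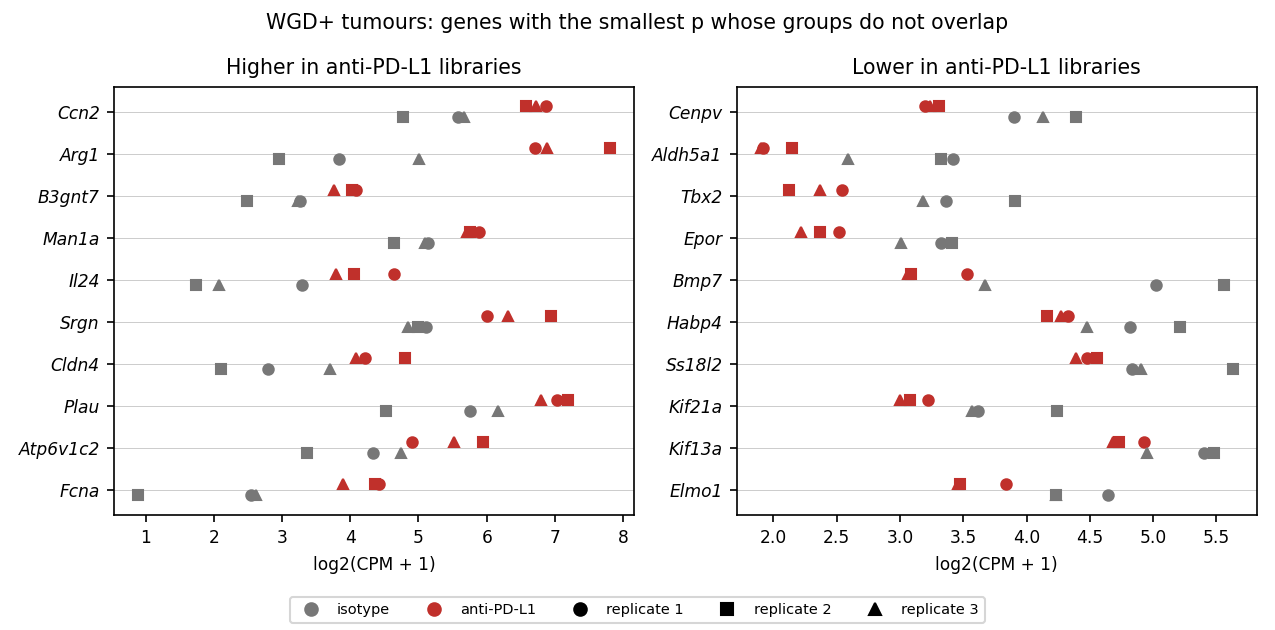
Levels, log2(CPM + 1), of the 10 higher (left) and 10 lower (right) genes with the smallest p whose groups do not overlap, in the 3 isotype (grey) and 3 anti-PD-L1 (red) WGD+ libraries. Arg1 spans 2.95 to 5.01 under isotype and 6.71 to 7.81 under anti-PD-L1, and none of the genes passed the test.

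The targets of the antibodies themselves overlapped between the groups. Cd274 (chr19:29367455-29388095), the gene of PD-L1, stood at 4.27, 2.14 and 3.53 under isotype and at 3.16, 4.90 and 5.90 under anti-PD-L1, a difference of 1.34 (SE 0.73, limma adjusted p = 1) that was 0.75 without isotype replicate 2. Anti-PD-L1 replicate 1 lay below isotype replicates 1 and 3, and anti-PD-L1 replicates 2 and 3 lay above all isotype libraries. The antibody binds the protein, so the RNA level is no check of the treatment. Pdcd1lg2, which encodes the other PD-1 ligand, PD-L2, stood at 1.28, 0.15 and 1.64 against 1.29, 3.09 and 3.21 (difference 1.51, SE 0.61; 1.07 without isotype replicate 2). Pdcd1, the gene of PD-1, stood at 1.48, 0.51 and 0.26 against 0.95, 1.68 and 2.27 (0.88, SE 0.66; 0.76 without it). Cd80, a costimulatory ligand that also binds PD-L1, stood at 1.75, 0.00 and 1.69 against 2.5, 1.26 and 1.72, a difference of 0.68 that was 0.11 without isotype replicate 2, the library where it was at 0.00. Of these genes, Pdcd1lg2 and Pdcd1 shared the pattern of Cd274, with replicates 2 and 3 the highest of the 6 libraries. Cd86, the related costimulatory ligand, was the 1 gene of the 9 in the PD-1 pathway list whose groups did not overlap (2.08, 1.12 and 2.04 against 2.34, 2.78 and 3.81; 1.23, or 0.92 without isotype replicate 2). Of all tested genes, 4.91% lay wholly above in this way. The median difference of the PD-1 pathway list was 0.68, and 0.55 without isotype replicate 2.

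T cell and cytotoxic genes were low, and the groups overlapped in Cd8a, Cd8b1, Ifng and Gzmb. Cd8a (chr6:71373427-71379173), the alpha chain of CD8, stood at 1.10, 0.51 and 0.38 under isotype and at 0.75, 2.12 and 3.20 under anti-PD-L1 (difference 1.36, SE 0.77, limma adjusted p = 1; 1.28 without isotype replicate 2). Cd8b1, the beta chain, was likewise highest in anti-PD-L1 replicates 3 and 2, with 0.95, 0.15 and 0.26 against 0.42, 1.49 and 2.14. Ifng, the interferon-gamma gene, stood at 1.37, 0.15 and 0.93 against 0.23, 2.42 and 3.26, and Gzmb, the protease granzyme B, at 2.31, 0.40 and 1.08 against 1.38, 2.71 and 3.70. The differences of Cd8b1, Ifng and Gzmb were 0.89, 1.15 and 1.34, and 0.74, 0.82 and 0.91 without isotype replicate 2. In all 4 genes anti-PD-L1 replicates 2 and 3 were the highest libraries and anti-PD-L1 replicate 1 lay below isotype replicate 1. None of the 15 tested members of the CD8 and cytotoxic list was called. None had groups that did not overlap, against 4.91% of all tested genes wholly above and 3.78% wholly below. The summed level of that list was 33.6, 12.1 and 23.7 CPM under isotype, 19.6, 40.2 and 76.8 CPM under anti-PD-L1, and 27.4, 11.5 and 13.4 CPM under anti-CD8.

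Among T cell receptor and signalling genes, 0 of 15 tested members were called. In 4 of the 15 all anti-PD-L1 libraries lay above all isotype libraries, against 4.91% of all tested genes, and in 4 without isotype replicate 2, against 9.62%. Lat, an adaptor of the T cell receptor, was among them, at 0.84, 0.40 and 1.33 against 1.33, 1.57 and 2.22 (0.85, or 0.62 without isotype replicate 2), its closest libraries equal to 2 decimals. Cd3e, a chain of the receptor complex, overlapped at 1.24, 0.15 and 0.85 against 0.59, 1.53 and 2.35 (0.74, or 0.44), again with anti-PD-L1 replicate 1 among the isotype values. Of the inhibitory receptors, 3 of 11 did not overlap and lay above: Cd200r1, Btla and Tigit. These 3 must be counted again without isotype replicate 2, and no others were. The shares of all tested genes are those just given. Cd200r1, an inhibitory receptor of myeloid and lymphoid cells, stood at 0.90, 0.62 and 0.68 against 1.75, 2.09 and 2.05 (difference 1.24, SE 0.43, 1.18 without isotype replicate 2). Its 3 anti-PD-L1 libraries lay close together and above the isotype libraries.

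The groups were separate in most macrophage and monocyte genes. In 11 of 16 genes all anti-PD-L1 libraries lay above all isotype libraries, against 4.91% of all tested genes. Without isotype replicate 2 these 11 genes must be counted again, and no others were, against 9.62% of all tested genes. In that comparison of 3 with 2, 1 gene, Cd14, lay wholly below, against 8.41%. Still, 0 of the 16 genes were called. As with the other lists, the genes were chosen with earlier results of these data known. The counts of separate groups were settled after seeing the values. Members of a list can rise and fall together in a library, so the 11 genes are not independent and their count supports nothing further. The median difference of the list was 1.16, and 0.74 without isotype replicate 2, against -0.01 over all genes tested. The summed level of the 16 genes was 578, 225 and 665 CPM under isotype and 1096, 1505 and 1063 CPM under anti-PD-L1, so every anti-PD-L1 library exceeded every isotype library.

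Cd163, the haemoglobin scavenger receptor, stood at 3.80, 2.61 and 4.22 under isotype and at 6.59, 6.74 and 4.94 under anti-PD-L1, a difference of 2.54 (SE 0.84, limma adjusted p = 1; 2.08 without isotype replicate 2). Mrc1, the mannose receptor, stood at 5.58, 4.29 and 5.78 against 7.62, 7.98 and 6.24 (difference 2.06, SE 0.69; 1.60 without isotype replicate 2). In both receptors anti-PD-L1 replicate 3 was the lowest treated library, the reverse of its place for Cd8a and Ifng. Cd68, a lysosomal membrane protein of macrophages, stood at 4.77, 3.68 and 4.80 against 5.81, 5.72 and 5.45 (difference 1.24, SE 0.42; 0.88 without isotype replicate 2). Csf1r, the receptor for macrophage colony-stimulating factor, stood at 4.79, 3.10 and 4.69 against 5.56, 5.67 and 5.70 (1.45, or 0.90 without it). C1qa, a chain of the complement starter C1q, stood at 6.99, 5.15 and 7.25 against 7.62, 8.31 and 7.92 (1.48, or 0.83). In these 3 genes isotype replicates 1 and 3 were close to each other and isotype replicate 2 was more than 1 log2 unit below them.

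The 5 list members outside that count were Cd14, Fcgr1, Mertk, Ly6c2 and Ccr2. Cd14, a coreceptor for bacterial lipopolysaccharide, stood at 6.64, 5.86 and 6.44 against 6.29, 6.44 and 6.10. Its difference was -0.04, and without isotype replicate 2 both remaining isotype libraries were level with or above the treated ones (-0.26). Ly6c2 and Ccr2, markers of blood monocytes, had their highest level in anti-PD-L1 replicate 3, at 3.14 and 4.58. Of 8 tested neutrophil genes, 1, Mmp9, had all anti-PD-L1 libraries above all isotype libraries, against 4.91% of all tested genes. The median difference of the neutrophil list was -0.23, and -0.32 without isotype replicate 2. S100a8 stood at 5.62, 4.99 and 4.50 against 4.46, 4.84 and 4.73. Macrophage genes and T cell genes are lists of other cell types than the tumour line, and their part in the levels of single genes such as Arg1 was not tested.

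**Figure D3:**
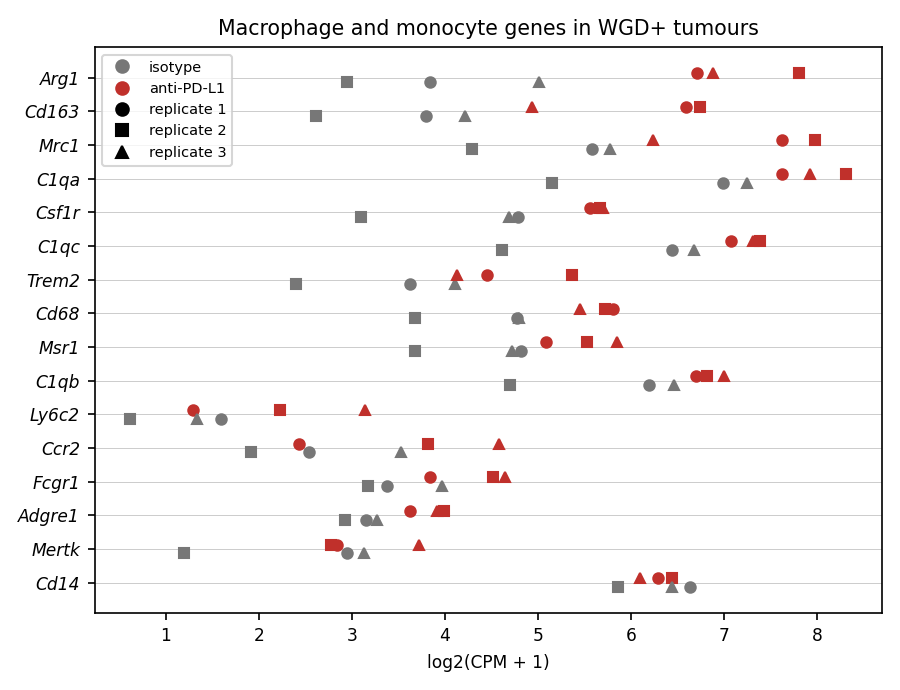
Levels, log2(CPM + 1), of the 16 macrophage and monocyte genes in the isotype (grey) and anti-PD-L1 (red) WGD+ libraries, with the replicate number as the symbol. Cd163 reaches 4.22 at most under isotype and 4.94 at least under anti-PD-L1, and Cd14 at the bottom overlaps.

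Chemokines that draw monocytes were measured beside them. Ccl8, a ligand of monocyte chemokine receptors, stood at 6.05, 4.73 and 6.44 under isotype and at 7.66, 8.48 and 7.88 under anti-PD-L1 (difference 2.26, SE 0.80; 1.76 without isotype replicate 2). Ccl7, a related chemokine, stood at 2.97, 2.48 and 3.88 against 4.61, 5.50 and 4.54 (difference 1.77, SE 0.48; 1.46 without isotype replicate 2). Both had every anti-PD-L1 library above every isotype library. Ccl2, another member of this family, overlapped at 3.71, 2.69 and 4.65 against 4.38, 5.09 and 5.29 (1.24, or 0.74 without isotype replicate 2). Over the list of inflammatory cytokines and chemokines, 6 of 16 tested members did not overlap and lay above, against 4.91% of all tested genes, 0 lay below, against 3.78%, and 0 were called. Without isotype replicate 2 the count above was also 6, against 9.62%, and the median difference of the list was 0.41, compared with 0.56 in all libraries. The list summed to 260, 217 and 254 CPM under isotype and to 465, 612 and 493 CPM under anti-PD-L1. Cxcl1, a chemokine for neutrophils, overlapped at 6.27, 6.83 and 5.71 against 6.82, 5.79 and 6.28, a difference of 0.02.

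Of 21 genes induced by interferon-gamma, 1, Icam1, had all anti-PD-L1 libraries above all isotype libraries, near the share of 4.91% of all tested genes. All 21 members of the list had a difference above 0, as did 48.3% of all tested genes, and 0 were called. The median difference of 1.25 became 0.48 without isotype replicate 2. Its level differed widely from library to library: the list summed to 1338, 220 and 873 CPM under isotype and to 444, 1824 and 4518 CPM under anti-PD-L1. Anti-PD-L1 replicate 1 thus lay below isotype replicates 1 and 3, and anti-PD-L1 replicate 3 lay above all other libraries of the comparison. Ifng and Cd274 had the same order of the 6 libraries.

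Irf1, the gene of that transcription factor, stood at 7.33, 5.09 and 6.94 against 6.68, 8.0 and 8.65 (difference 1.32, SE 0.60; 0.64 without isotype replicate 2). Cxcl10, a chemokine for T cells, stood at 4.73, 3.67 and 5.24 against 4.34, 6.43 and 7.21 (difference 1.44, SE 0.66; 1.01 without isotype replicate 2). Icam1, an adhesion molecule for leukocytes, stood at 2.55, 2.03 and 2.64 against 3.24, 3.75 and 4.59, with 1.45 as its difference (SE 0.62; 1.26 without isotype replicate 2). The promoters of the first pair are shown so that the motifs can be seen in place. They are the 250 bases before the gene start in RefSeq, build GRCm38.p6 (mm10), 5′ to 3′ on the gene's strand, with matches to the letters TTCNNNGAA (a GAS element, the interferon-gamma activated site) or to the core of an ISRE (GAAA repeated after a gap of any 2 bases, bound by IRF proteins) in capitals.
Irf1, chr11:53769764-53770013, plus strand: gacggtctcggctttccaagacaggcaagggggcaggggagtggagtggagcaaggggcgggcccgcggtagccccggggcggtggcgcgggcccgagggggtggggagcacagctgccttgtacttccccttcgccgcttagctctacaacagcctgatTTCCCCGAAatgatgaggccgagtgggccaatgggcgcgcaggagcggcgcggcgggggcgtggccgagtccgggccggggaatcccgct
Cxcl10, chr5:92348890-92349139, minus strand: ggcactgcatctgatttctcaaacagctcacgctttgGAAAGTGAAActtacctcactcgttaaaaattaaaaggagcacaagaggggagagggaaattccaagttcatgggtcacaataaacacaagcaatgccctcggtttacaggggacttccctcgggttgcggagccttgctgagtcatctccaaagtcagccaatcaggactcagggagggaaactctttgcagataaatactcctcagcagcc
The match in Irf1, TTCCCCGAA, begins 90 bases before the gene start, and the match in Cxcl10, GAAAGTGAAA, begins 213 bases before it. Both strands were searched, and Irf1 has 2 promoters in the table, of which the first is shown.

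Promoters were found for 13 of the 21 genes of the interferon-gamma list. The GAS letters were in 6 of the 13, against 7.18% of the promoters of all 27025 genes in the table, and the ISRE letters were in 10 of the 13, against 3.04%. Of the 10 higher genes named above, 6 had a promoter in the table and 0 of 6 held either set of letters, as did 0 of 8 of the lower genes. Among 10 macrophage genes with a promoter, 1 (Fcgr1) held GAS letters and 0 held ISRE letters. The letters CCAAT were in 1 of the 6, 3 of the 8, 7 of the 13 and 4 of the 10, against 34.5%, and CATTCC, the site of TEAD factors, in 0, 0, 1 and 0, against 12.6%. A match is a description of these letters and not of a bound site. The interferon-gamma list was chosen as genes that this cytokine induces, so its shares say nothing about the antibody comparison. The searches of the interferon-gamma and macrophage lists and of CATTCC were added after the levels had been seen.

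The MHC class I list, of genes that present peptides to CD8 T cells, had the same order of libraries as the interferon-gamma list. Its members summed to 5350, 1159 and 4180 CPM under isotype and to 2754, 5366 and 8132 CPM under anti-PD-L1. H2-K1, a classical class I heavy chain, stood at 10.90, 8.12 and 10.49 against 9.73, 10.74 and 11.26, a difference of 0.74 that was -0.12 without isotype replicate 2. None of the 13 class I genes had groups that did not overlap, against 4.91% of all tested genes wholly above and 3.78% wholly below. Their median difference was 0.76 with isotype replicate 2 and 0.15 without it. Of the class I differences, 13 of 13 were above 0 in the first case and 10 of 13 in the second. The shares of all tested genes were 48.3% and 49.6%. For class II the sums were 811, 73.6 and 585 CPM against 292, 563 and 1414 CPM. Cd74, the invariant chain, stood at 8.45, 4.56 and 7.85 against 6.98, 7.89 and 9.08, and its difference was 1.03 with isotype replicate 2 and -0.17 without it. The class II median likewise went from 0.70 to -0.10, with 10 of 10 differences above 0 in the first case and 3 of 10 in the second, against 48.3% and 49.6% of all genes. Type I interferon genes, a further list of 22, had a median difference of 0.51, or 0.15 without isotype replicate 2. Of the 22, 0 had groups that did not overlap, against 4.91% above and 3.78% below over all tested genes.

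Other tissue markers also differed from library to library. Skeletal muscle genes summed to 183, 104 and 2697 CPM under isotype and to 84.2, 38.9 and 3109 CPM under anti-PD-L1, so the replicate numbered 3 was high in both groups. Fibroblast and matrix genes summed to 1284, 869 and 1656 CPM against 2159, 1594 and 1323 CPM. Of their 14 differences 11 were above 0, as were 48.3% over all tested genes. Their median was 0.41 (0.09 without isotype replicate 2). In this list 0 of 14 genes separated the groups, against 4.91% of all tested genes wholly above and 3.78% wholly below. Fn1, fibronectin, stood at 6.42, 5.09 and 7.41 against 8.0, 7.86 and 6.99, a difference of 1.31 (unadjusted 95% interval 0.08 to 2.55). The Fn1 difference was 0.70 without isotype replicate 2, and the gene was not called. Keratin and epithelial genes summed to 2994, 2059 and 2774 CPM against 3488, 2312 and 2169 CPM. Of their 13 tested members, Cldn4 was the 1 whose groups did not overlap, against 4.91% of all tested genes wholly above. Krt5, a basal keratin, stood at 9.27, 8.80 and 9.32 against 9.60, 8.35 and 8.35. The part of muscle or stroma in other differences was not tested.

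**Figure D4:**
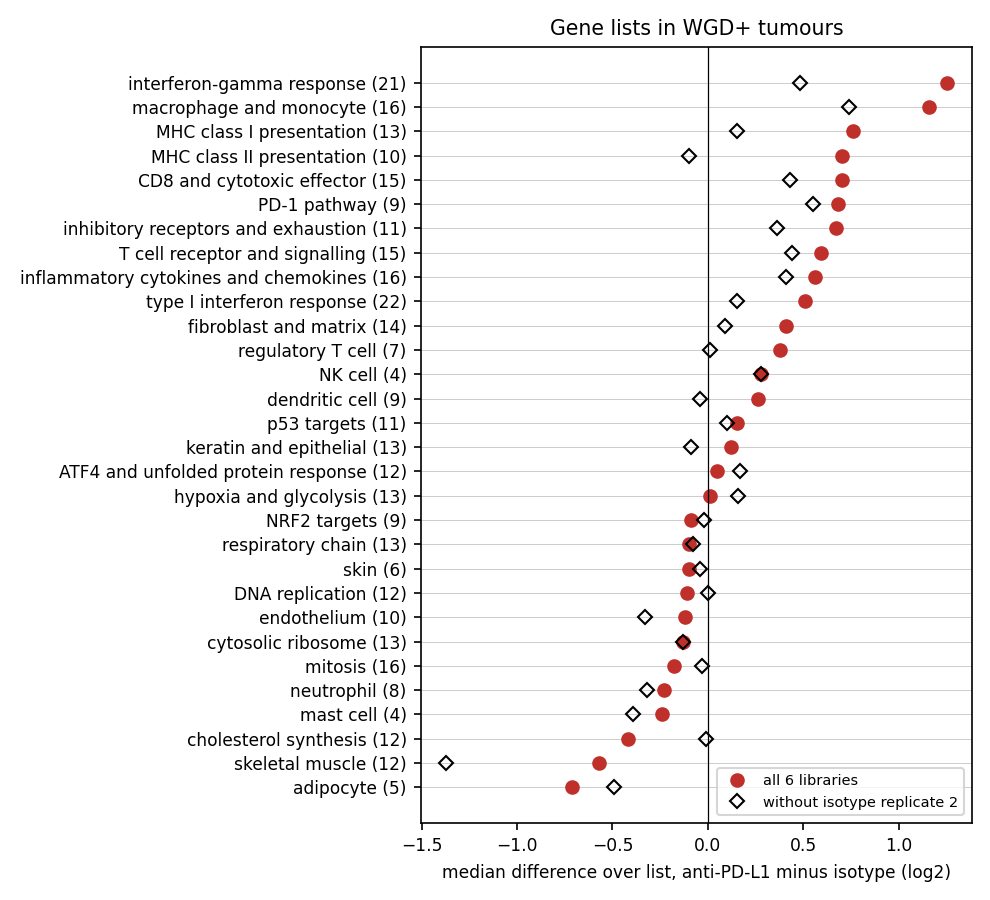
Median difference (log2, anti-PD-L1 minus isotype, horizontal axis) over the tested members of each gene list in WGD+ tumours, with their number in brackets, in all 6 libraries (red) and without isotype replicate 2 (open). The interferon-gamma list goes from 1.25 to 0.48, the macrophage list from 1.16 to 0.74 and the class II list from 0.70 to -0.10.

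Anti-CD8 libraries of WGD+ tumours share the isotype controls, so their levels are given side by side and no overlap is read from them. Arg1 stood at 6.11, 6.01 and 5.89 under anti-CD8, and its means were 3.93 under isotype and 7.13 under anti-PD-L1. Ccn2 stood at 6.51, 6.30 and 6.51, and its means were 5.34 under isotype and 6.72 under anti-PD-L1. Fcna, Cd163, Mrc1 and Cd68 averaged 4.49, 5.67, 7.08 and 5.45 under anti-CD8. Their means were 4.23, 6.09, 7.28 and 5.66 under anti-PD-L1 and 2.02, 3.54, 5.22 and 4.42 under isotype. Ccl8 and Il24 averaged 6.53 and 2.92 under anti-CD8, 8.01 and 4.16 under anti-PD-L1, and 5.74 and 2.37 under isotype. Macrophage genes summed to 1399, 698 and 1198 CPM under anti-CD8, against 578, 225 and 665 CPM under isotype. Higher sums than under isotype were thus not particular to anti-PD-L1. Interferon-gamma genes summed to 392, 355 and 366 CPM under anti-CD8, below isotype replicates 1 and 3 and above isotype replicate 2. Cd8a stood at 0.61, 0.42 and 0.19 in those libraries.

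The same antibody comparison in WGD- tumours used other control libraries, and the difference between the forms was tested as an interaction. Limma called 0 of 13840 genes (0%) in this test, and 232 (1.68%) reached an unadjusted p under 0.05. By voom the counts were 0 and 216. Without isotype replicate 2 limma called 0 of 13815 (0%), with 216 (1.56%). For Arg1 the WGD- libraries stood at 6.20, 5.90 and 7.79 under isotype and at 8.76, 7.75 and 6.89 under anti-PD-L1, a difference of 1.17. The interaction for Arg1 was 2.03 (SE 0.84, limma adjusted p = 1), with an unadjusted 95% interval from 0.20 to 3.85. Without isotype replicate 2 it was 1.54, with an interval from -0.27 to 3.34. Under isotype, Arg1 was thus higher in all WGD- libraries than in any WGD+ library, and under anti-PD-L1 the forms overlapped.

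Macrophage genes summed to 871, 1081 and 1715 CPM under isotype and to 5297, 2893 and 1130 CPM under anti-PD-L1 in WGD- tumours. There, 2 of 16 genes had all anti-PD-L1 libraries above all isotype libraries, against 3.17% of all genes, and 0 had all below, against 2.28%. The median difference of the list was 0.98 in WGD- and 1.16 in WGD+ tumours, and 0 of its genes passed the interaction test. WGD- anti-PD-L1 replicate 3 was the lowest of its group for macrophage genes and for interferon-gamma genes (699 CPM, against 3875 and 4499 CPM in the other libraries). For the interferon-gamma list the median difference was 0.34 in WGD- tumours, and 0 genes passed the interaction test.

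Single genes of the interaction were named by rank, since none passed. Il24 stood at 5.09, 4.97 and 5.36 under isotype and at 5.09, 4.40 and 5.53 under anti-PD-L1 in WGD- tumours, an interaction of 1.92 (SE 0.55, limma adjusted p = 1; 1.61 without isotype replicate 2). Cldn4 was also at a similar level under both antibodies in WGD- tumours (5.35, 5.55 and 5.76 against 5.49, 4.77 and 5.74), with an interaction of 1.72 (SE 0.47; 1.34 without it). For both genes the WGD+ anti-PD-L1 libraries stood closer to the WGD- libraries than the WGD+ isotype libraries did. Plaur, the receptor that binds the product of Plau, had an interaction of 0.91 (SE 0.30; 0.63 without it). Prl2c2 had one of 2.30 (SE 0.74; 1.88) and Prl2c5 one of 1.61 (SE 0.52; 1.13). They belong to a family of near-identical proliferin genes, so reads may be split between copies and their values are uncertain. In the other direction, Elmo1 had an interaction of -1.27 (SE 0.35), Tbx2 of -1.18 (SE 0.38) and Traf1, a signalling adaptor of TNF receptors, of -1.13 (SE 0.37), or -1.34, -0.96 and -1.28 without isotype replicate 2.

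Apoc1, an apolipoprotein made by macrophages and liver, was the single gene called in WGD- tumours (1 of 13840, 0.00723%, with 3.76% of genes at an unadjusted p under 0.05). It stood at 2.75, 3.56 and 2.79 under isotype and at 1.06, 0.86 and 0.61 under anti-PD-L1 (difference -2.19, SE 0.27, limma adjusted p = 0.00499), and voom did not call it. Without WGD- anti-PD-L1 replicate 3 the count of called genes in WGD- tumours was 524. In WGD+ tumours it was near the floor in both groups, at 0.28, 0.71 and 0.14 against 0.33, 0.49 and 0.12. Its interaction of 2.13 (SE 0.37; 2.29 without isotype replicate 2) had the smallest adjusted p of that test, 0.479. With libraries weighted by their spread (limma array weights) the test called 4 genes: Apoc1, Elmo1, Cldn4 and Traf1, of which Cldn4 had an adjusted p of 0.0237.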

How the data were processed

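Stranded mRNA libraries were made from tumour RNA with the TruSeq kit, per the labels' protocols. Per the submitters' processing notes, STAR 2.5.1b and edgeR were used with the mm10 build. For the counting tool and the gene annotation, the entry is "not given in the sources used here". The deposited values of the antibody experiment are log2 values which the authors scaled over its 17 libraries, and they gave whole reads within 0.1 of a read when taken as log2(CPM + 1). The 17 libraries held 9.57 to 15.5 M reads (M, mega), with a median of 12 M. The table held 20185 genes, including 25 symbols turned into dates, which were left out. Symbols matched GENCODE M21 in 98.4% of cases, 275 more matched RefSeq, and gene spans come from GENCODE M21 (mm10).

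Groups were taken from titles. Genes above 1 CPM in at least 3 of the 17 libraries were fitted with limma 3.58.1 in R 4.3.3 (1 mean per group in all 6 groups, mean-variance trend, robust empirical Bayes), with Benjamini-Hochberg adjustment over all genes tested and calls at 0.05. The fit was run on simulated counts that had the same fixed dispersion for all genes. The spread of these libraries differs from gene to gene, so that run is no check of the results here. The interaction came from the same fit. The members and the gene lists were chosen with earlier results of these data known.

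Named were the antibody targets and related genes; 10 genes each way with the smallest p, without overlap between groups, a mean of at least 3 in the higher group and a symbol of their own; up to 4 genes of a list by p; and genes ranked by the interaction. Other list members were named after their values were seen. Counts of groups that do not overlap, and which lists are described gene by gene, were also settled after seeing the values. Alternatives were no filter, a pseudocount of 4, quantile normalization, array weights, voom, a block on the replicate number, a model of the compared groups alone, and leaving out each library. Same-numbered WGD+ libraries deviated together with correlations of 0.021, -0.06 and 0.317, so the numbers were not taken as pairs. The genotype score used genes called with a difference of at least 1 between vehicle-treated WGD+ and WGD- tumours of immunodeficient mice. The time course was not used here.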

Additional observations from a re-analysis of the deposited data

How the results depend on the processing

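The count of called genes in WGD+ tumours was 0 in each of 21 alternatives, with a smallest adjusted p between 0.0765 (without isotype replicate 1) and 1. The replicate block gave 0 calls in WGD+ tumours, with 457 genes at an unadjusted p under 0.05, 0 for the interaction and 1 in WGD- tumours, so the block changed no call. The interaction had 0 calls in the alternatives except array weights, which called 4 genes: Apoc1 (2.37), Elmo1 (-1.75), Cldn4 (2.17) and Traf1 (-1.88). In WGD- tumours 2861 genes were called with array weights and 0 by voom, with or without WGD+ isotype replicate 2. Leaving out 1 library gave 1 to 524 calls there, the 524 without WGD- anti-PD-L1 replicate 3. The cause was not tested.

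Leaving out 1 library of the comparison, which leaves 2 against 3, raised the genes lying wholly above from 680 to between 1136 and 1563, and those wholly below from 523 to between 1018 and 1564, as fewer libraries must. Macrophage genes lying wholly above numbered 11 to 14 in these cases, and 10 after quantile normalization. These counts, and voom without isotype replicate 2, were alternatives added after seeing the data.

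Of the genes named by the rule, 8 changed sign under some alternative, and H2-K1, named outside it, was at -0.12 without isotype replicate 2. With 1 library left out, Cbx6 ran from -0.62 to 0.07 (without isotype replicate 1). Cd74, H2-Aa and H2-Ab1 reached 1.78, 1.63 and 1.49 at most with 1 library left out. They were at -0.36, -0.31 and -0.25 with array weights. They were at -0.17, -0.12 and -0.13 without isotype replicate 2, both in all groups and in the compared groups only, and at -0.16, -0.12 and -0.14 by voom without it. Myh4, Atp2a1, Ckm and Tnnc2 were at 0.34, 0.29, 0.37 and 0.41 without anti-PD-L1 replicate 2, at 0.49, 0.55, 0.45 and 0.65 without isotype replicate 3, and at -3.32, -3.02, -3.09 and -2.70 without anti-PD-L1 replicate 3. The Arg1 difference ran from 2.70 to 3.74 over the alternatives, and that of Ccn2 from 1.10 to 1.55. Over the same alternatives the median of the interferon-gamma list ran from 0.06 to 2.17. The class I median ran from -0.12 to 1.25, the class II median from -0.35 to 1.27 and the macrophage median from 0.74 to 1.41. With 1 read worth up to 0.107 CPM, genes near 0 on this scale, such as Cd8a under isotype, rest on few reads.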

Other observations

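Cholesterol synthesis genes had 12 of 12 differences below 0, with a median of -0.42 and 0 genes called. Over all tested genes, 48.3% of differences were above 0. Without isotype replicate 2, 6 of the 12 were above 0, against 49.6% of all tested genes. Lss, lanosterol synthase, stood at 5.30, 6.56 and 5.29 under isotype and at 5.10, 5.12 and 5.12 under anti-PD-L1. Isotype replicate 2 was far the highest, and the median of the list was -0.01 without it. The list summed to 780, 1468 and 676 CPM under isotype and to 637, 771 and 669 CPM under anti-PD-L1.

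Genes of growth and protein synthesis had small differences. Mitosis genes had a median difference of -0.18 (16 tested, 0 called), and -0.03 without isotype replicate 2. DNA replication genes had one of -0.11 (12 tested, 0 called), and 0.00 without that library. Of 13 cytosolic ribosome genes, Rpl4, Rpl7 and Rpl10 had all anti-PD-L1 libraries below all isotype libraries, against 3.78% of all genes. Without isotype replicate 2 these 3 must be counted again, and no others were, against 8.41% of all genes. Rpl4 stood at 11.41, 11.59 and 11.49 against 11.30, 11.18 and 11.16. Herpud1 and Dnajb9, which act in the response to unfolded proteins in the endoplasmic reticulum, were the 2 of 12 genes of their list that lay wholly above, against 4.91% of all genes. Without isotype replicate 2 the count above was again 2, against 9.62%, and 1 gene of the list lay wholly below, against 8.41%. Herpud1 stood at 4.91, 5.19 and 4.99 against 5.48, 5.51 and 5.58, with a difference of 0.49 and 0.57 without isotype replicate 2.

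Csn3, the milk protein kappa-casein, stood at 5.21 in isotype replicate 2 and at 0.68 to 1.44 in the other libraries of the comparison. No explanation was tested for any of these values.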
